A study of Mus musculus with 4 samples.

Results

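The genes described here carry fatty acids into the heart muscle cell and break them down in its mitochondria. They are 34 genes listed by name for their known roles and grouped by step: 6 for uptake and binding, 5 for activation to acyl-CoA, 8 for the carnitine shuttle and its control, and 15 for mitochondrial oxidation. All 34 were found among the 20886 genes that could be named on the array, and all 34 were well above background on all 4 arrays. The fit across the whole array held 12542 genes.

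Hearts came from 10-week-old male mice bred from an αMHC promoter-driven CRE line and a tetO-Yamanaka's OSKM line, so both groups carried the same alleles for Pou5f1 (Oct4), Sox2, Klf4 and Myc. The doxycycline group (2 arrays) received doxycycline by intraperitoneal injection for 2 days, and the PBS group (2 arrays) received PBS for 2 days. Adult heart muscle cells were then isolated, and their total RNA was labelled with Cy3 and hybridised to 1-colour Agilent arrays. The αMHC promoter is active in heart muscle cells and not in the vessel, connective tissue or blood cells that can remain in such a preparation. Neither group here received doxycycline without the factors, so drug and factors cannot be told apart. The labels do not say how many animals stand behind an array, so the tests measure the spread between arrays only, and that spread may be technical in part.

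Heart muscle draws most of its fuel from long-chain fatty acids. They enter through membrane transporters, are held by cytosolic binding proteins and are joined to coenzyme A on membranes. The acyl group is then passed to carnitine, carried across the inner mitochondrial membrane and returned to coenzyme A, and the spiral of β-oxidation removes acetyl units in a repeated cycle of dehydrogenation, hydration, dehydrogenation and cleavage. The entry into mitochondria is braked by malonyl-CoA, and many genes of the route are known targets of the PPARα receptor in the heart.

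Levels below are log2 of the processed signal minus the 75th percentile of the array, a scale on which 1 unit is a doubling and on which different genes' probes are not compared. A difference is the doxycycline mean minus the PBS mean, with the standard error of the limma fit (SE, n = 2 per group), and adjusted p values are corrected over all 12542 genes. The 75th percentile signal was 248 and 193 on doxycycline arrays 1 and 2, and 112 and 171 on PBS arrays 1 and 2. Repeated spots varied by a median of 4.02% and 4.81% on the doxycycline arrays, and by 10.99% on PBS array 1 and 4.29% on PBS array 2. PBS array 1 was outside the accepted range of the scanner software on this measure and on the spike-in spots, and it stood apart in the genes described here as well. Differences of the 34 genes are therefore also given without it. Of the introduced factors, Myc had processed signals of 844 and 138 on the doxycycline arrays, against 22.2 and 18.5 on the PBS arrays (difference 3.41 ± 0.77, adjusted p = 0.331). Klf4 differed by -0.28 ± 0.48, Pou5f1 was well above background on 1 array and Sox2 on 0. Whether these probes, named by RefSeq transcript, read the introduced copies was not tested.

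None of the 34 genes passed the limma test over all genes (0 of 34, where 0% of all genes were called higher and 0% lower). At an unadjusted p under 0.05 there was 1 gene higher, Slc27a1, and 0 lower, against 3.17% of all genes higher and 3.89% lower. On average 29 of 34 genes lay above PBS, where 45.2% of all genes did, and their median difference was 0.72 against a median of -0.061 over all genes tested. Both doxycycline arrays exceeded both PBS arrays for 20 genes, where 14.5% of all genes did so, and lay below both for 2, where 20.8% did so. By step, the median difference was -0.21 for uptake, 0.36 for activation, 1.11 for the shuttle and 0.73 for oxidation. Whether the steps differ from each other was not tested. With 2 arrays against 2, an exact permutation test of a single gene cannot give a two-sided p under 0.333.

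**Figure D1:**
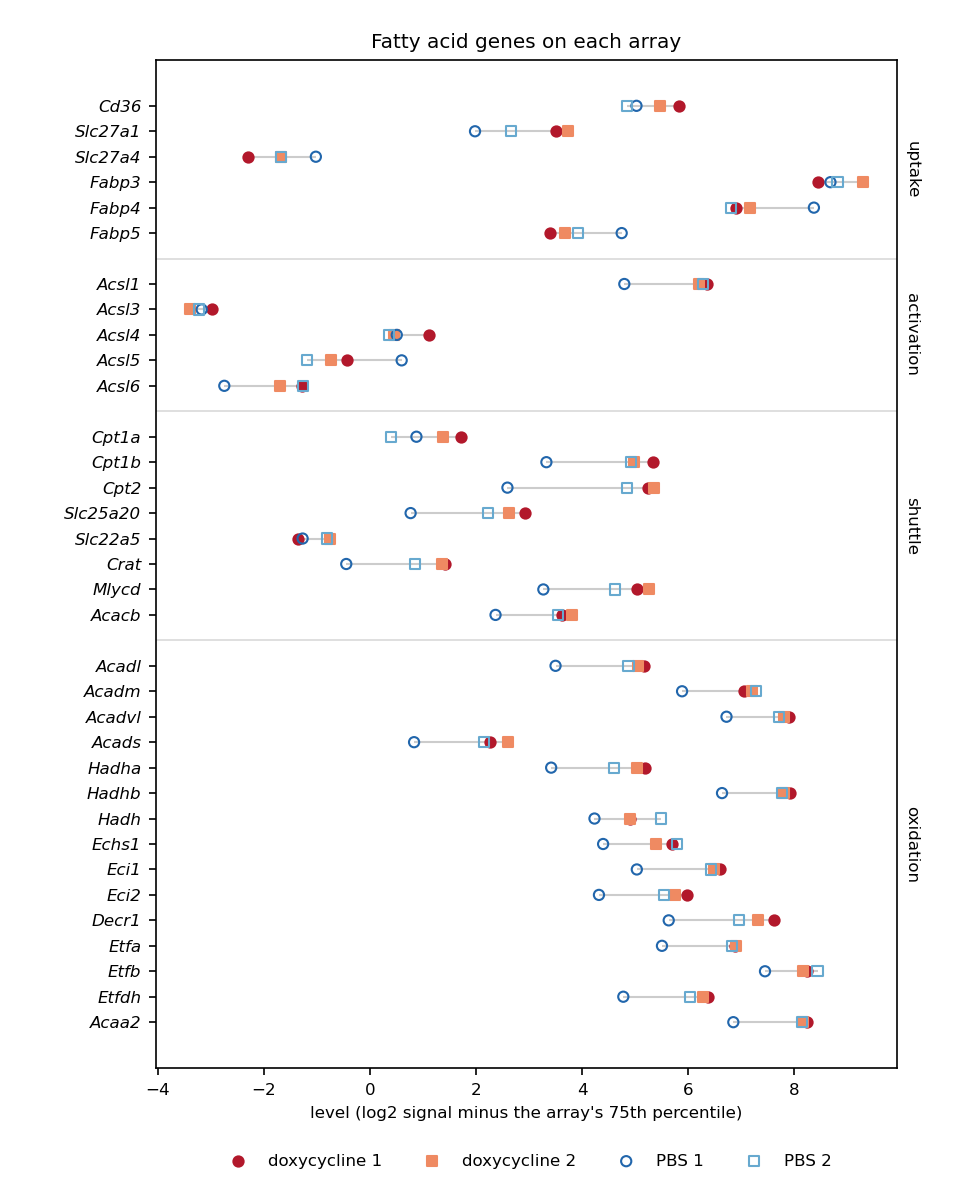
Level of each of the 34 genes (vertical axis, grouped by step) on each array (horizontal axis, log2 signal minus the array's 75th percentile); filled symbols are doxycycline arrays, open symbols PBS arrays, and a grey line spans the 4 values. PBS array 1 was the lowest of the 4 for all 15 oxidation genes and for 6 of 8 shuttle genes, and PBS array 2 lay close to the doxycycline arrays for most of them.

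PBS array 1 was the lowest of the 4 arrays for 24 of 34 genes, where it was so for 37.2% of all genes. Its distance from PBS array 2 depended on the step. All 15 oxidation genes were lower on PBS array 1 than on PBS array 2, within a narrow range of -1.40 to -0.99 (median -1.30), and so were 7 of 8 shuttle genes (median -1.32). Uptake genes had a median distance of 0.42 and activation genes of 0.047, with 2 of 6 and 2 of 5 lower on PBS array 1. In all, 26 of the 34 were lower on PBS array 1 than on PBS array 2, where 53.4% of all genes were. The doxycycline arrays were closer to each other. The median absolute distance over the 34 genes was 0.23 between the doxycycline arrays and 1.27 between the PBS arrays, against 0.32 and 0.68 over all genes. Without PBS array 1 the median difference of the 34 genes was 0.20, against -0.11 over all genes, and by step it was 0.14 for uptake, 0.029 for activation, 0.49 for the shuttle and 0.11 for oxidation. The doxycycline mean then lay above PBS array 2 for 25 genes, where 41.6% of all genes did so. Both doxycycline arrays exceeded PBS array 2 for 23 genes, where 28.4% of all genes did so, and lay below it for 7, where 44.3% did so. Without PBS array 2 the median difference was 1.30.

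**Figure D2:**
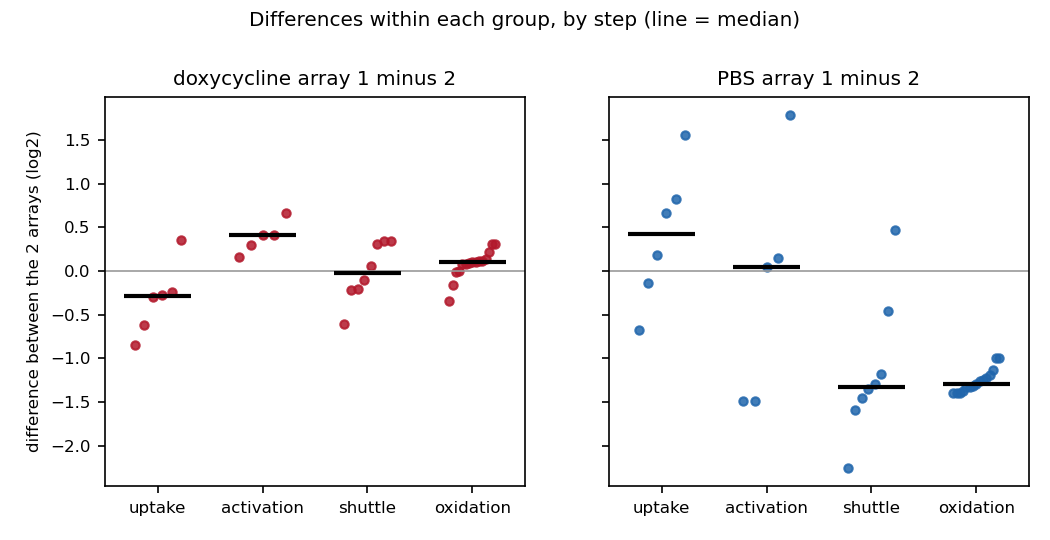
Distance between the 2 arrays of a group (vertical axis, log2) for each gene, by step; the left panel is doxycycline array 1 minus 2, the right panel PBS array 1 minus 2, and black lines are medians. The oxidation genes lie close to 0 between the doxycycline arrays and between -1.40 and -0.99 between the PBS arrays, whereas uptake and activation genes lie on both sides of 0 in the PBS panel.

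Uptake genes had differences of both signs. Of the 6, both doxycycline arrays lay above both PBS arrays for Cd36 and Slc27a1, and below both for Slc27a4 and Fabp5. Over all genes, 14.5% lay above both and 20.8% below both. Cd36, the membrane glycoprotein that takes up most of the heart's long-chain fatty acid, read 5.82 and 5.46 on the doxycycline arrays, against 5.02 and 4.84 on the PBS arrays. Its groups did not overlap, and its PBS arrays were only 0.19 apart. The difference was 0.71 ± 0.40 (SE, 1.64-fold, adjusted p = 0.842), and without PBS array 1 it was 0.80. Slc27a1, the acyl-CoA synthetase and transporter FATP1, read 3.50 and 3.74 on the doxycycline arrays, against 1.98 and 2.66 on the PBS arrays. Both doxycycline values stood clear of the higher PBS value. Its difference of 1.30 ± 0.44 (SE, 2.47-fold) had the smallest p of the 34 genes (adjusted p = 0.561), and it was 0.96 without PBS array 1 (adjusted p = 0.504).

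The promoter of Cd36 is shown because Cd36 is an uptake gene whose doxycycline arrays lay above each PBS array, and because its window holds AGGTCA, the core motif of many nuclear receptors. The 250 bases before its start (RefSeq, GRCm38.p6, chr5:17835897-17836146, minus strand) hold the motif once, on the opposite strand, 228 bases before the start. Capitals mark that match, which reads TGACCT on the strand shown:
Cd36: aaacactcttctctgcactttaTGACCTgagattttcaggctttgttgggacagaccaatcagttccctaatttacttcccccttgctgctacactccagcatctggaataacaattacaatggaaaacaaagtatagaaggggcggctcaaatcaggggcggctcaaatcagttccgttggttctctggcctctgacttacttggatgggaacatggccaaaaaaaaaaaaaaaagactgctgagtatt

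Slc27a4, the related transporter FATP4, had a difference of the opposite sign, with -2.30 and -1.68 on the doxycycline arrays and -1.02 and -1.68 on the PBS arrays. Doxycycline array 2 lay only just below PBS array 2, and the difference was -0.64 ± 0.46 (adjusted p = 0.894), or -0.31 without PBS array 1. The cytosolic fatty acid-binding proteins split likewise. Fabp3, the heart muscle form, read 8.45 and 9.30 on the doxycycline arrays, against 8.68 and 8.81 on the PBS arrays, so the groups overlapped (0.13 ± 0.45, or 0.063 without PBS array 1). A second Fabp3 probe gave -0.30 (-0.33 without that array), the only case among the 9 genes with several probes in which probes differed in sign. Fabp4, best known from adipocytes and also made by capillary endothelium, read 6.89 and 7.17 on the doxycycline arrays, against 8.37 and 6.81 on the PBS arrays. PBS array 1 was the highest value and PBS array 2 the lowest, so the difference of -0.56 ± 0.58 became 0.22 without PBS array 1. Fabp5, found in epithelium, endothelium and macrophages, read 3.39 and 3.68 on the doxycycline arrays, against 4.74 and 3.92 on the PBS arrays. Both doxycycline values were below both PBS values, with a difference of -0.79 ± 0.46 (adjusted p = 0.848), or -0.38 without PBS array 1.

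Markers of several other cell types were, like Fabp4 and Fabp5, highest on PBS array 1. Of 12 endothelial markers, 12 were tested, and their summed level (linear signal relative to the 75th percentile, added over the list) was 113 and 150 on the doxycycline arrays, against 347 and 101 on the PBS arrays. For the 6 heart capillary markers the sum was 85.6 and 143 on the doxycycline arrays, against 204 and 73.4 on the PBS arrays. Both sums were highest on PBS array 1. Among 10 macrophage markers, 8 were tested and summed to 6.04 and 6.85 on the doxycycline arrays, against 22.4 and 8.18 on the PBS arrays, with Cd163 well above background nowhere and Cd68 not named. The 9 fibroblast markers summed to 84.3 and 90.05 on the doxycycline arrays, against 252 and 84.2 on the PBS arrays. Dcn, the brightest of them, made up most of that sum. By member, all 9 fibroblast markers lay below PBS on average and 6 lay below both PBS arrays, where 20.8% of all genes did so. Their median difference was -2.13, or -1.32 without PBS array 1. Red cell markers, 4 of 6 tested, summed to 12.5 and 14.9 on the doxycycline arrays, against 98.3 and 19.25 on the PBS arrays, and Slc4a1 was not well above background anywhere. The median difference was -0.14 for endothelial markers (0.64 without PBS array 1), -1.09 for heart capillary markers (-0.30), -1.08 for macrophage markers (-0.48) and -1.64 for red cell markers (-0.46). The part of these cells in the values of Fabp4 and Fabp5 was not tested, and in such bulk RNA fewer cells of a type and less RNA per cell cannot be told apart. On no array were the adipocyte markers Adipoq, Plin1 and Lep well above background, and Cidec was so on 1. The other 4 of the 8 adipocyte markers summed to 2.19 and 2.38 on the doxycycline arrays, against 0.88 and 0.79 on the PBS arrays. Their median difference was 1.27, or 1.62 without PBS array 1, and 0 passed. For 3 of the 4 both doxycycline arrays exceeded both PBS arrays, where 14.5% of all genes did so.

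All 12 heart muscle markers were well above background on every array. Their summed level was 4066 and 4808 on the doxycycline arrays, against 5029 and 6084 on the PBS arrays. PBS array 1 minus PBS array 2 had a median of -0.98 over them, and their median difference was 0.075 with PBS array 1 and -0.37 without it. Myh6 and Myl2 were the markers of this list that were higher on PBS array 1 than on PBS array 2. Myh6 read 9.17 and 9.81 on the doxycycline arrays, against 10.28 and 9.73 on the PBS arrays, and Myl2 read 8.94 and 9.41 on the doxycycline arrays, against 9.79 and 9.64 on the PBS arrays. Actc1 read 9.29 on PBS array 1, above the doxycycline arrays (8.77 and 8.67), and Myl3 read 10.15, above theirs (9.80 and 10.04). Relative to PBS array 2, levels of oxidation and shuttle genes on PBS array 1 thus went with most heart muscle markers. They went against the endothelial, fibroblast, macrophage and red cell lists, and the part of cell makeup in them was not tested.

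**Figure D3:**
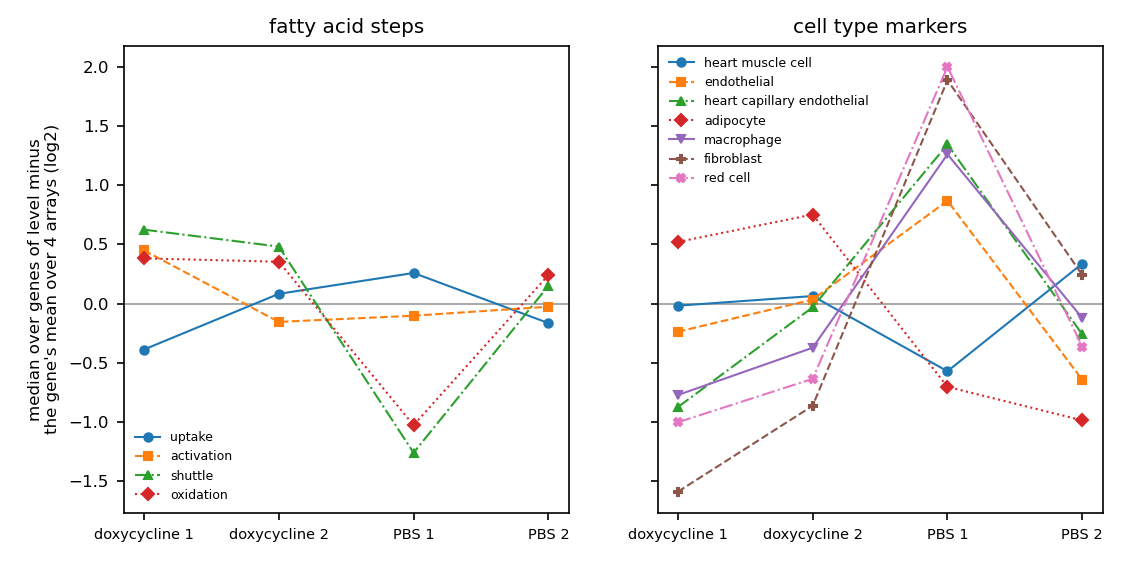
Median over the genes of a list of the level minus the gene's own mean over the 4 arrays (vertical axis, log2), for each array; the left panel shows the 4 steps, the right panel 7 lists of cell type markers, and lines only join the points of a list. On PBS array 1 the shuttle and oxidation medians are at -1.26 and -1.03, the heart muscle median at -0.57, and the fibroblast and red cell medians at 1.89 and 2.00.

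Activation genes showed small and uneven differences. The 5 long-chain acyl-CoA synthetases differ in tissue and in preferred chain, and 0 of the 5 had groups that did not overlap. Of all genes, 14.5% had doxycycline arrays above both PBS arrays and 20.8% below both. Acsl1, the main form in heart muscle, read 6.36 and 6.20 on the doxycycline arrays, against 4.79 and 6.28 on the PBS arrays. PBS array 2 lay between the doxycycline arrays, so that its difference of 0.74 ± 0.56 (adjusted p = 0.896) was -2.8e-05 without PBS array 1. A second, dimmer Acsl1 probe gave 1.19, and 0.48 without that array. Acsl4, which prefers arachidonate, read 1.11 and 0.45 on the doxycycline arrays, against 0.50 and 0.35 on the PBS arrays (0.36 ± 0.43, or 0.43 without PBS array 1), and doxycycline array 1 alone stood apart. Acsl3, linked to lipid droplets, spanned only -3.40 to -2.98 over the 4 arrays (0.0053 ± 0.41, or 0.029 without PBS array 1). Acsl5, a form of intestine and liver, read -0.43 and -0.73 on the doxycycline arrays, against 0.60 and -1.19 on the PBS arrays. Its difference was -0.28 ± 0.63 with PBS array 1 and 0.61 without it. Acsl6, a form best known from brain, read -1.29 and -1.70 on the doxycycline arrays, against -2.75 and -1.27 on the PBS arrays, and its difference was 0.51 ± 0.57, or -0.23 without PBS array 1.

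The carnitine shuttle had the largest median difference of the 4 steps. For 7 of its 8 genes both doxycycline arrays exceeded both PBS arrays, where 14.5% of all genes did so. Cpt1a and Cpt1b encode the liver and muscle forms of the outer-membrane enzyme that sets the rate of entry. Cpt1a read 1.72 and 1.38 on the doxycycline arrays, against 0.87 and 0.40 on the PBS arrays. On the probe used here PBS array 1 was the higher of the PBS pair, unlike in the other 6 of these genes. The difference was 0.91 ± 0.42 (SE, 1.88-fold, adjusted p = 0.767), and 1.15 without PBS array 1 (2.21-fold, adjusted p = 0.476). This probe was spotted 10 times, and a second Cpt1a probe gave 1.17, or 1.101 without PBS array 1. That second probe read -2.16 on PBS array 1 and -2.02 on PBS array 2, so there PBS array 1 was the lower. Cpt1b read 5.33 and 4.99 on the doxycycline arrays, against 3.32 and 4.91 on the PBS arrays. The lower doxycycline value exceeded PBS array 2 by a small margin, and the difference of 1.04 ± 0.59 (adjusted p = 0.842) was 0.25 without PBS array 1. A second Cpt1b probe gave 0.98, or 0.11 without that array. The 2 forms thus had like differences with all arrays and unlike ones without PBS array 1, and whether they differ from each other was not tested.

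The promoter of Cpt1a is shown because Cpt1a had the largest difference of the 34 genes once PBS array 1 was left out. The 250 bases before its start (RefSeq, GRCm38.p6, chr19:3323051-3323300, plus strand) hold AGGTCA once, on the opposite strand, 94 bases before the start, shown in capitals as TGACCT. The stretch between that match and the start is rich in G and C:
Cpt1a: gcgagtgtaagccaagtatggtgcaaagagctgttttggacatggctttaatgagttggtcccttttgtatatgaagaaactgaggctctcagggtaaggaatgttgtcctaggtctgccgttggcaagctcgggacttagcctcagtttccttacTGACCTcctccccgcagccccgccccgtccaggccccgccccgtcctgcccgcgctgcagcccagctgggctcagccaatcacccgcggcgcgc

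The letters AGGTCA were searched on both strands of the 250 bases before each start. The motif was present for 6 of the 28 genes of the route that have a window in the table: Cd36, Acsl6, Cpt1a, Acadm, Acadvl and Echs1. Over all 27025 genes with a window, 15.8% had it. A match is a description of these letters in this stretch and says nothing of binding. Of the 6, Cd36, Cpt1a and Acadvl had both doxycycline arrays above both PBS arrays, and Acsl6, Acadm and Echs1 had groups that overlapped. Both doxycycline arrays lay above both PBS arrays for 20 of the 34 genes and for 14.5% of all genes. Whether the motif bears on the differences was not tested.

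In the rest of the shuttle PBS array 1 was the lower of the PBS pair, as for Cpt1b. Cpt2, which returns the acyl group to coenzyme A at the inner membrane, read 5.24 and 5.35 on the doxycycline arrays, against 2.59 and 4.85 on the PBS arrays. PBS array 1 minus PBS array 2 was -2.26, the widest gap of the 34 genes, and the difference of 1.58 ± 0.73 (SE, 2.99-fold, adjusted p = 0.767) became 0.45 without PBS array 1. A second Cpt2 probe gave 1.76, and 1.05 without that array. Slc25a20, the carrier that exchanges acylcarnitine for carnitine, read 2.92 and 2.61 on the doxycycline arrays, against 0.77 and 2.22 on the PBS arrays (1.28 ± 0.56, adjusted p = 0.754). Crat, which buffers acetyl groups as acetylcarnitine, read 1.42 and 1.36 on the doxycycline arrays, against -0.45 and 0.85 on the PBS arrays (1.19 ± 0.53, adjusted p = 0.754). Both kept more than 0.5 without PBS array 1, at 0.55 for Slc25a20 and 0.54 for Crat. Slc22a5, the plasma membrane carnitine transporter OCTN2, was the exception in this step. It read -1.35 and -0.75 on the doxycycline arrays, against -1.27 and -0.81 on the PBS arrays, so that the groups overlapped (-0.0094 ± 0.44, or -0.24 without PBS array 1).

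The enzymes that make and remove the brake on CPT1 had differences of the same sign. Mlycd, which degrades malonyl-CoA, read 5.03 and 5.25 on the doxycycline arrays, against 3.27 and 4.62 on the PBS arrays. Its difference was 1.20 ± 0.54 (SE, 2.30-fold, adjusted p = 0.755), and 0.52 without PBS array 1. Acacb, the mitochondrial acetyl-CoA carboxylase that makes malonyl-CoA, read 3.61 and 3.81 on the doxycycline arrays, against 2.37 and 3.55 on the PBS arrays. Its difference was 0.76 ± 0.51 (adjusted p = 0.883), and 0.17 without PBS array 1, with 1.06 from a second probe, or 0.52 without that array. Both genes thus had doxycycline arrays above PBS arrays, and neither passed.

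**Figure D4:**
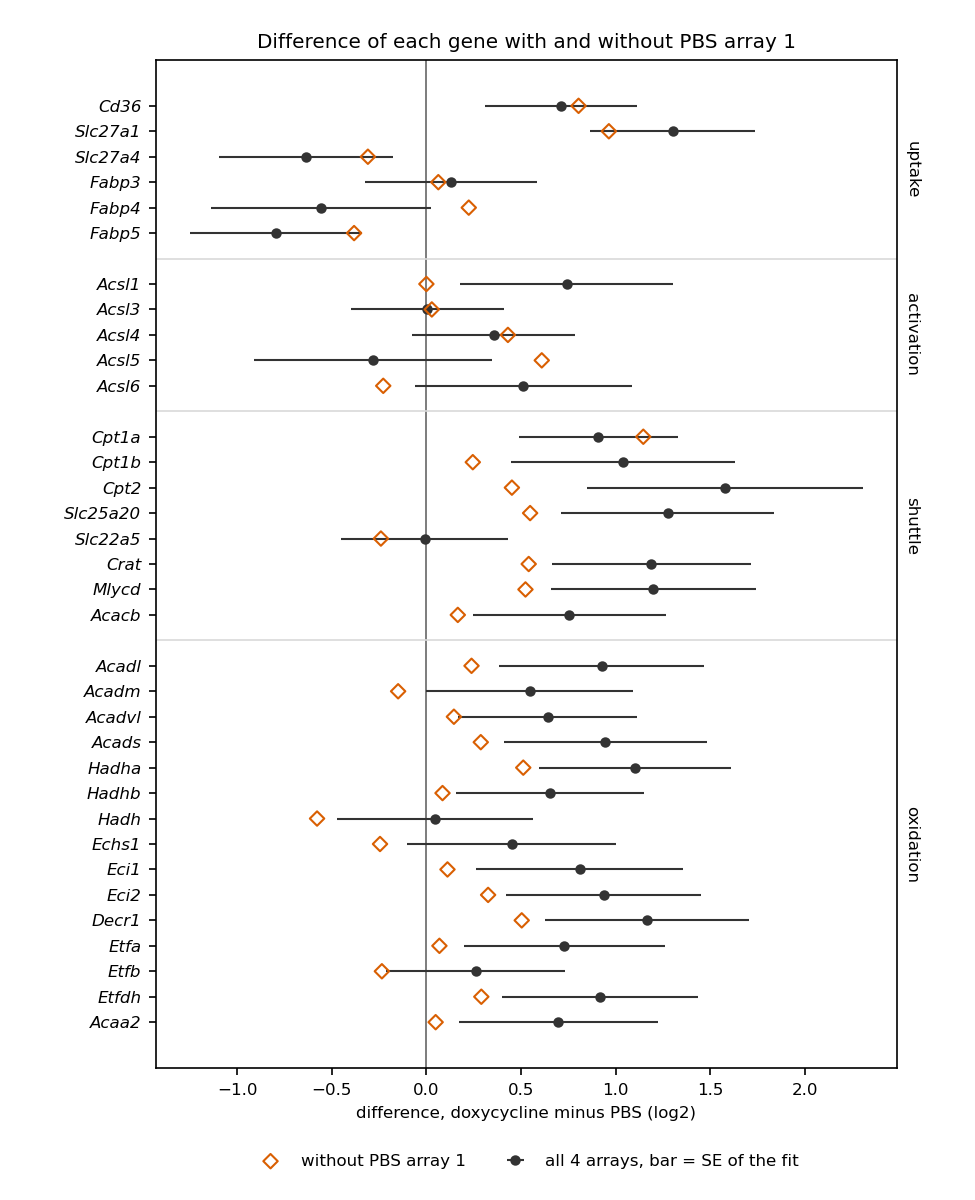
Difference of each gene, doxycycline minus PBS (horizontal axis, log2), with genes grouped by step on the vertical axis; black points are the fit to all 4 arrays with bars of 1 SE, and open diamonds are the differences without PBS array 1. Without that array Cpt1a (1.15), Slc27a1 (0.96) and Cd36 (0.80) lie farthest to the right, and the oxidation genes lie between -0.58 and 0.51.

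Oxidation genes had differences of 1 sign. All 15 lay above PBS on average, from 0.046 to 1.17, where 45.2% of all genes lay above. For 11 both doxycycline arrays exceeded both PBS arrays, where 14.5% of all genes did so. Without PBS array 1 the same 15 ranged from -0.58 to 0.51. Of them 11 lay above PBS array 2 on average and 4 below it, where 41.6% of all genes lay above. Hadha and Hadhb encode the α and β subunits of the mitochondrial trifunctional protein, which carries out the last steps of the spiral on long chains. Hadha read 5.18 and 5.04 on the doxycycline arrays, against 3.41 and 4.60 on the PBS arrays. Hadhb read 7.91 and 7.80 on the doxycycline arrays, against 6.64 and 7.77 on the PBS arrays. In both genes PBS array 1 was far below the other 3 arrays, and in Hadhb the other 3 nearly coincided. The difference was 1.104 ± 0.51 (SE, adjusted p = 0.766) for Hadha and 0.65 ± 0.50 (adjusted p = 0.896) for Hadhb. Without PBS array 1 they were 0.51 and 0.085.

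These 2 genes start back to back on chromosome 5, and the stretch between them is shown because it lies upstream of both. Hadha runs on the minus strand from 30154980 and Hadhb on the plus strand from 30155253 (RefSeq, GRCm38.p6), which leaves 272 bases between the starts. The 250-base windows of the genes share 228 bases, of which 57.0% are G or C. The window of Hadhb (chr5:30155003-30155252, plus strand) holds no AGGTCA on either strand, so no letters are in capitals:
Hadhb: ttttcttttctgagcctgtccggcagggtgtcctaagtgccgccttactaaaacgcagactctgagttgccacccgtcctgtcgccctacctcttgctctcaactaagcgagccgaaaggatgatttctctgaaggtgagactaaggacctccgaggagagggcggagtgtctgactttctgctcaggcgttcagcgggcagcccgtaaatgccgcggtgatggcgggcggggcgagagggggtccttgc

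The acyl-CoA dehydrogenases, which begin each turn of the spiral and are named for the chain length they prefer, had differences from 0.55 to 0.95. Acads, for short chains, read 2.27 and 2.61 on the doxycycline arrays, against 0.83 and 2.15 on the PBS arrays (0.95 ± 0.54, or 0.29 without PBS array 1). Acadl, for long chains, read 5.17 and 5.05 on the doxycycline arrays, against 3.50 and 4.87 on the PBS arrays (0.93 ± 0.54, or 0.24). Acadvl, for very long chains, read 7.90 and 7.81 on the doxycycline arrays, against 6.72 and 7.71 on the PBS arrays (0.64 ± 0.47, or 0.15). In these 3 both doxycycline arrays were above both PBS arrays. Acadm, for medium chains, read 7.04 and 7.21 on the doxycycline arrays, against 5.88 and 7.27 on the PBS arrays. PBS array 2 was the highest value, and the difference of 0.55 ± 0.55 became -0.15 without PBS array 1.

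The enzymes of the middle steps differed in how they stood to PBS array 2. Hadh, the dehydrogenase for medium and short chains, read 4.90 and 4.90 on the doxycycline arrays, against 4.23 and 5.48 on the PBS arrays. The doxycycline arrays coincided between the PBS arrays, and the difference of 0.046 ± 0.52 was -0.58 without PBS array 1, the lowest of the 34 genes in that comparison (adjusted p = 0.632). Echs1, the short-chain enoyl-CoA hydratase, read 5.70 and 5.38 on the doxycycline arrays, against 4.39 and 5.79 on the PBS arrays (0.45 ± 0.55, or -0.25 without PBS array 1). Acaa2, the thiolase that releases acetyl-CoA, read 8.23 and 8.16 on the doxycycline arrays, against 6.85 and 8.15 on the PBS arrays. That probe was spotted 10 times, and its difference was 0.70 ± 0.53, or 0.049 without PBS array 1.

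Auxiliary enzymes for unsaturated chains had some of the larger values. Decr1, the dienoyl-CoA reductase, read 7.62 and 7.31 on the doxycycline arrays, against 5.63 and 6.96 on the PBS arrays. It had the largest difference among oxidation genes, 1.17 ± 0.54 (SE, 2.245-fold, adjusted p = 0.767), and 0.50 without PBS array 1. A second Decr1 probe gave 1.02, and 0.34 without that array. Eci2, an enoyl-CoA isomerase, read 5.97 and 5.76 on the doxycycline arrays, against 4.32 and 5.54 on the PBS arrays (0.94 ± 0.52, or 0.33 without PBS array 1). Eci1, the other isomerase, read 6.60 and 6.48 on the doxycycline arrays, against 5.03 and 6.43 on the PBS arrays (0.81 ± 0.55, or 0.11). All 3 genes had doxycycline arrays above both PBS arrays.

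Electrons from the dehydrogenases pass to the electron transfer flavoprotein, made of Etfa and Etfb, and on to its oxidoreductase Etfdh. Etfdh read 6.37 and 6.27 on the doxycycline arrays, against 4.77 and 6.03 on the PBS arrays (0.92 ± 0.52, or 0.29 without PBS array 1). Etfa read 6.89 and 6.90 on the doxycycline arrays, against 5.50 and 6.83 on the PBS arrays (0.73 ± 0.53, or 0.069). Etfb read 8.24 and 8.16 on the doxycycline arrays, against 7.45 and 8.44 on the PBS arrays (0.26 ± 0.47, or -0.24). PBS array 2 was below both doxycycline arrays for Etfdh and Etfa and above both for Etfb, so the subunits of the flavoprotein stood on opposite sides of it.

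Of 61 other genes of the route, listed by role, 48 were tested and 0 passed. Their median difference was 0.27, with 33 above PBS on average and 15 below, where 45.2% of all genes lay above. Both doxycycline arrays exceeded both PBS arrays for 14, where 14.5% of all genes did so. They lay below both for 6, where 20.8% of all genes did so. Without PBS array 1 the median was -0.083. In the list of other oxidation genes all 20 were tested, with a median of 0.60 (-0.030 without PBS array 1). Ehhadh, the peroxisomal bifunctional enzyme, read -0.053 and -0.32 on the doxycycline arrays, against -2.40 and -1.01 on the PBS arrays (1.52 ± 0.55, adjusted p = 0.621, or 0.83). Without PBS array 1 Ehhadh thus stood above the mitochondrial oxidation genes described before, none of which exceeded 0.51. It is a single gene of a list whose median was -0.030 there, and it does not stand for that list. Whether peroxisomal and mitochondrial genes differ was not tested.

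In the list of other activation genes 5 of 9 were tested, with a median of 0.76 (0.098 without PBS array 1). Acsm5, a medium-chain acyl-CoA synthetase, differed by 1.62 ± 0.59 (adjusted p = 0.636) and Acss2, the cytosolic acetyl-CoA synthetase, by 0.76 ± 0.43, and both had doxycycline arrays above PBS arrays. Without PBS array 1 the differences were 0.85 for Acsm5 and 0.45 for Acss2. In the list of other uptake and binding genes 6 of 13 were tested, with a median of 0.30 (0.33 without PBS array 1). Lpl, the lipase that frees fatty acids from lipoproteins, read 8.24 and 8.17 on the doxycycline arrays, against 6.69 and 7.91 on the PBS arrays (0.90 ± 0.51, or 0.30 without PBS array 1), and the acyl-CoA-binding protein Dbi differed by 0.59 ± 0.48, or 0.18 without that array. In the list of other carnitine genes 7 of 8 were tested, with a median of 0.096 (-0.22 without PBS array 1). Aldh9a1, an enzyme of carnitine synthesis, differed by 0.71 ± 0.40, and the mitochondrial carrier Slc25a29 by -0.97 ± 0.53. Without PBS array 1 the differences were 0.61 for Aldh9a1 and -1.35 for Slc25a29. In the list of malonyl-CoA and energy sensing genes 10 of 11 were tested, with a median of -0.0044 (-0.61 without PBS array 1). Ppara, the receptor that drives much of this route, read 1.76 and 2.21 on the doxycycline arrays, against 2.44 and 3.05 on the PBS arrays (-0.76 ± 0.44, adjusted p = 0.851, or -1.07 without PBS array 1). Its doxycycline arrays lay below both PBS arrays, as for 20.8% of all genes. Of the 34 listed genes, 20 lay above both PBS arrays, where 14.5% of all genes did so, and 2 below both. Their median difference was 0.72, or 0.20 without PBS array 1. Any link between Ppara and the listed genes was not tested. Acaca, the cytosolic acetyl-CoA carboxylase, differed by 0.70 ± 0.42, or 0.94 without PBS array 1, with doxycycline arrays above both PBS arrays.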

How the data were processed

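Per the file headers, the authors extracted each spot's intensity with Agilent Feature Extraction 10.7.1.1. The processed intensity, as deposited, has local background removed and spatial trend corrected within an array, with no normalization between arrays. Later steps by the authors are not given in the sources used here. The deposited well-above-background and outlier flags were also used. Probes were named by RefSeq accession without version through a gene table of GRCm38.p6, since the files' design build is mm9 and gives no symbols; 27508 of 39429 probes were named, for 20886 genes.

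Signals were log2-transformed, the 75th percentile of non-control spots was subtracted, flagged spots were dropped and spots of a probe averaged. Probes entered if at least 2 of 4 arrays had them well above background (at least 0.5 of a probe's spots), and the brightest probe stood for a gene. No kept probe was saturated. Groups came from the sample titles. Tests were two-sided, from limma 3.58.1 in R 4.3.3 (4.69 prior and 2 residual degrees of freedom), with Benjamini-Hochberg adjustment over all genes at 0.05, after a check on simulated arrays. All arrays lay on 1 slide, so slide could not be a block. Columns of other series numbered 0.

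Every gene of the list is named. Of other lists, up to 2 genes with the smallest p are named, except that some results are not reported here. The genes, the lists and the tests were chosen with earlier results of these data known. Alternatives were normexp (offset 50, from median spot signals), quantile normalization, median scaling, no filter, a filter requiring 4 arrays, probe means, array weights, the replicate number as a block and each array left out. Without an array, the lone array of a group was assumed to vary like the other group. Precision is limited by the number of arrays.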

Additional observations from a re-analysis of the deposited data

How the results depend on the processing

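None of the 34 genes passed the limma threshold in the main analysis or under any of the 12 alternatives (0 of 272 results under other settings and 0 of 136 with an array left out), and 265 of the 272 kept their direction. The 7 that turned were Acsl3 (-0.28) and Acsl6 (-0.13) with normexp, Slc22a5 (0.054) and Hadh (-0.13) with quantile normalization, Acsl5 (0.064) and Slc22a5 (0.34) with median scaling, and Fabp3 (-0.083) with the mean of probes. With no filter, a filter requiring 4 arrays, array weights or the replicate block, each of the 34 differences equalled its main value. No direction could turn under those settings, so their share of the 265 says nothing of robustness. The activation median, 0.36 in the main analysis, was -0.13 with normexp. Median scaling moved the median of all genes by 0.35. It gave 95 genes called higher and 33 lower in the whole array, an uptake median of 0.13 and 1 gene below PBS on both arrays. Relative to the median of all genes, the uptake median was -0.15 and that of the 34 genes 0.78, as in the main analysis. Those values could not change, since this scaling shifts every gene's difference by the same amount. The replicate number, which the labels do not tie to a shared animal or day, gave 152 genes called higher and 143 lower over the whole array when set as a block. That fit had infinite prior degrees of freedom and gave every gene the same SE, 0.61. Its calls therefore follow the size of the difference alone and take no account of a gene's own spread. Same-numbered arrays' deviations correlated at -0.085 across genes.

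With each array left out in turn, the genes called over the whole array ranged from 0 to 87 higher and from 0 to 84 lower, the calls coming where a doxycycline array was left out (17 and 15 without array 1, 87 and 84 without array 2). The fits without a doxycycline array had 1012.8 prior degrees of freedom and gave the 34 genes nearly the same SE, from 0.8499 to 0.8521. Their calls therefore follow the size of the difference almost alone and take little account of a gene's own spread. The median difference of the 34 genes ranged from 0.20 (without PBS array 1) to 1.30 (without PBS array 2). The median of uptake ranged from -0.49 to 0.14 and that of activation from 0.023 (without doxycycline array 1) to 0.69. That of the shuttle ranged from 0.49 to 1.83 and that of oxidation from 0.11 (without PBS array 1) to 1.39 (without PBS array 2). Genes below PBS on both arrays ranged from 3 to 7. The genes whose sign turned ranged from -0.30 to 0.55 for Fabp3, from -1.34 to 0.22 for Fabp4, from -2.8e-05 to 1.48 for Acsl1, from -0.20 to 0.21 for Acsl3, from -1.18 to 0.61 for Acsl5, from -0.23 to 1.25 for Acsl6, from -0.31 to 0.29 for Slc22a5, from -0.15 to 1.24 for Acadm, from -0.58 to 0.67 for Hadh, from -0.25 to 1.15 for Echs1 and from -0.24 to 0.76 for Etfb. The causes were not tested.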
